A study of Mus musculus with 6 samples.

Results

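The normal lens of the newborn mouse was described from the wild-type arrays of a study that set wild-type lenses beside transgenic ones. The arrays were chosen by their titles alone, and they are 3 of the 6 arrays of the series. Each carried RNA of whole lenses, with no treatment named, dissected from wild-type Balb/c mice at 2 days of age and measured on an Affymetrix mouse array. The design text gives 12 lenses per genotype and 3 replicates, and no label says that different animals stood behind each replicate. The spread between the arrays may therefore be technical in part. The 3 transgenic arrays were not compared with them here. The replicates are called W1, W2 and W3, and every list of 3 values below is in that order.

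The lens is a transparent organ made of 1 cell lineage. A single layer of epithelial cells covers its front, divides, and at the equator turns into fiber cells, which elongate, fill with crystallin proteins and later break down their nuclei and other organelles. A collagen-rich capsule encloses the whole, and in the newborn a transient network of vessels still covers it. In RNA of a whole lens, a small number of cells of a type and little RNA per cell cannot be told apart.

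All values are log2 probe set values as the authors deposited them. A probe set is a group of short probes on the array that reads 1 transcript, and its brightness depends on those probes as well as on the RNA. The ranks below are therefore an order of signal brightness and not of molecules, and no fold is given between genes. For each of 18193 genes the probe set with 1 gene symbol whose mean over the 3 arrays was highest was taken. A background level of 5.44 was set at the 95th percentile of the means of 39 olfactory receptor genes, whose median was 4.14 and highest mean 5.91. Of all genes, 11756 lay above it, which is 64.6%. The top 10% of genes by brightness (1819 genes, 10.0%) began at 9.31, and the median gene lay at 6.38. No statistical test was run, because the arrays form 1 group.

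The 4 genes that mark lens tissue were all far above background. *Cryaa*, which encodes the chaperone-like alpha-A crystallin, read 14.47, 14.52 and 14.50. *Mip*, the water channel of the fiber membrane, read 13.32, 13.29 and 13.29, and *Bfsp1*, a filament protein of fibers, read 13.59, 13.64 and 13.75. *Foxe3*, a forkhead transcription factor of the epithelium, read 8.65, 8.86 and 8.84. The fiber genes stood at ranks 2, 19 and 29 of all genes in the order *Cryaa*, *Bfsp1* and *Mip*, and the epithelial regulator at rank 2669, still brighter than 85.3% of genes.

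**Figure D1:**
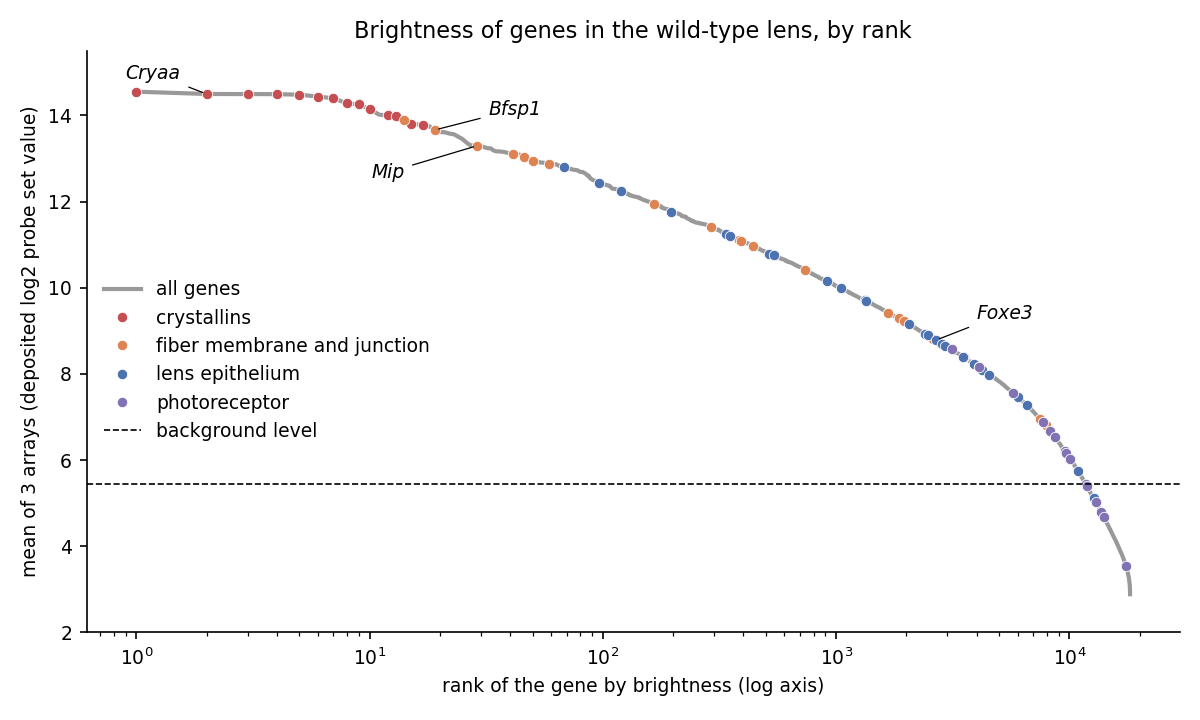
Mean deposited log2 value of each gene over the 3 wild-type arrays (vertical axis) against its rank by brightness (horizontal axis, log scale), with members of 4 gene lists as coloured points and the background level of 5.44 as a dashed line. The crystallins fill the left end of the curve, fiber and epithelium genes spread along it, and most photoreceptor genes lie towards its right end.

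Crystallins, the structural proteins that give the lens its refractive power, were the brightest transcripts of the tissue. All 14 crystallin genes that could be read as single genes, of 16 listed, lay among the 20 brightest genes, and the first 10 places were all crystallins. Their levels ran from 13.77 to 14.55. The remaining pair of listed genes, *Crygc* and *Cryge*, had no probe set of their own here.

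The brightest of all, *Crybb1*, encodes beta-B1 crystallin and read 14.51, 14.57 and 14.57. The other beta-crystallins were *Crybb3* at 14.49, 14.49 and 14.49, *Cryba1* at 14.48, 14.49 and 14.47 and *Cryba2* at 14.43, 14.44 and 14.44, followed by *Cryba4* at 14.28, 14.27 and 14.28. *Crybb2*, at 13.81, 13.74 and 13.77, was the dimmest crystallin and still held rank 17. The beta family therefore spanned the whole range of crystallin values.

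Both alpha-crystallins, small heat shock proteins that hold other proteins in solution, were in the first 10. Beside *Cryaa*, *Cryab* read 14.43, 14.38 and 14.39. *Cryab* had 2 further probe sets, 1 at 13.74 and the other at 4.85, which is below background, so probe sets of 1 gene can differ far more than arrays do.

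Among the gamma-crystallins, which are enriched in the dense lens centre, *Crygd* was brightest at 14.49, 14.51 and 14.48. It was followed by *Crygb* at 14.29, 14.23 and 14.25 and *Crygs* at 14.17, 14.14 and 14.12, then by *Cryga* at 13.97, 14.03 and 14.01 and *Crygf* at 13.99, 13.99 and 13.99. *Crygn*, a member related to both the beta and gamma families, read 13.80, 13.79 and 13.82. *Cryga* to *Crygf* are close copies of each other, so the share of each in its probe set is uncertain. The brightest probe set of all, at 14.82, carries the symbols of both *Crygc* and *Crygb* and was left out for that reason.

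The crystallins also had the smallest median SD of the 38 lists. Their SDs ran from 0.0022 to 0.036 with a median of 0.021, against a median of 0.124 for all genes above background. The highest value of any probe set on each array was between 14.81 and 14.83, so the crystallins lay close to the top of the measured range. What part that ceiling has in their small spread was not tested. The values of *Cryaa* and *Crygd* overlapped between arrays with each other and with those of *Crybb3* and *Cryba1*. The order from rank 2 to rank 5 is therefore not wholly fixed by these data, although *Crybb3* lay above *Cryba1* in every array. *Crybb1* lay above all of these genes in every array, but its W1 value of 14.51 was below the W2 value of *Cryaa*, 14.52.

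The promoters of the 3 brightest crystallin genes and of *Mip* are printed because these genes sit at the top of the ranking. Each is the strand of the gene, 250 bases before and 50 after its start in RefSeq (GRCm38.p6): *Crybb1* chr5:112255570-112255869 (+), *Cryaa* chr17:31677681-31677980 (+), *Crygd* chr1:65063391-65063690 (-) and *Mip* chr10:128225560-128225859 (+). Capitals mark every TATAAA, a form of the TATA box, and every TGCTGA, the core of the site bound by Maf factors, on either strand. Other forms of the TATA box were not searched, such as the TATATA in the sequences of *Cryaa* and *Crygd*.
Crybb1: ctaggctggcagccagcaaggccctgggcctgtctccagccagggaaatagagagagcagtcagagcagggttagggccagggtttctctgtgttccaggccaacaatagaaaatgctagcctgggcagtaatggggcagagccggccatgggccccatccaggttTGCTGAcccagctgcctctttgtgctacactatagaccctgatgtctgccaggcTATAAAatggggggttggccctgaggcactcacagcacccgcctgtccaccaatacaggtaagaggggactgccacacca
Cryaa: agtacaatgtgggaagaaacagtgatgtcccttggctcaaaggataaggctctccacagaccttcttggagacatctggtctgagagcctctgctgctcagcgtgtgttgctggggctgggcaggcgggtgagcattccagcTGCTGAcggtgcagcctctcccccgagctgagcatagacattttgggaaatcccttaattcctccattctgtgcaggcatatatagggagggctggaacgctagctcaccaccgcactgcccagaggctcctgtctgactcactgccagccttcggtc
Crygd: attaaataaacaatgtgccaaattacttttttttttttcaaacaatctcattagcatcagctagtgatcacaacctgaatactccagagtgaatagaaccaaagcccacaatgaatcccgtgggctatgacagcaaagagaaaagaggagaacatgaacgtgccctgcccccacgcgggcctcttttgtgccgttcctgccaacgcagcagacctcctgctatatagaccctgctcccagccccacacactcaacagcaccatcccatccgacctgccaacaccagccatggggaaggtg
Mip: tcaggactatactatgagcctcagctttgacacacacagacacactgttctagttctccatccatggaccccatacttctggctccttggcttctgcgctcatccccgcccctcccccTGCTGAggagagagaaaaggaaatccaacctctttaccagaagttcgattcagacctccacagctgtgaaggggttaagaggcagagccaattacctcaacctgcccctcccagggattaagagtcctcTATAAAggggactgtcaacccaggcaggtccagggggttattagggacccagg

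*Crybb1* held TGCTGA at position -84 and TATAAA at -30, where negative positions count back from the RefSeq start. *Cryaa* held TGCTGA at -108, and *Mip* held TGCTGA at -132 with TATAAA at -3. *Crygd* held neither. Of 15 crystallin promoters in the RefSeq table, 10 held TGCTGA on either strand (66.7%), as did 8 of 26 promoters of the fiber gene list (30.8%) and 19.5% of 32851 promoters of the same length. On the given strand alone 6 of the 15 held it, against 10.4% of all promoters.

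TATAAA stood in 4 of the 15 crystallin promoters (26.7%) and in 13.6% of all. The Sox-type motifs AACAAT and ACAAAG stood in 3 and 5 of the 15, against 10.7% and 18.7% of all promoters. GAANNTTC, the inverted repeat of the heat shock element, stood in none of the 15 and in 7.86% of all. No 2 matches overlapped within a crystallin promoter, and members of the family share sequence by descent, so the 15 are not independent. A match describes letters and not binding.

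Fiber cells carry, beside crystallins, their own membrane channels, junctions and a beaded filament skeleton. Of 25 listed genes of this kind, 22 were measured, all 22 were above background and 15 lay in the top 10%. Their median percentile was 97.7. *Lim2*, the second most abundant protein type of the fiber membrane, read 13.88, 13.89 and 13.93 and was the brightest gene of the list. *Bfsp2*, the partner of *Bfsp1* in the beaded filament, read 12.94, 13.04 and 13.16.

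*Tdrd7*, an RNA granule protein needed for a clear lens, read 12.95, 13.14 and 13.24, although its other probe set gave 7.70. *Grifin*, a galectin-like protein of the lens, read 12.95, 12.90 and 12.95. A second probe set of *Mip* gave 13.03, close to its first. The genes *Vim*, *Gja3*, *Gje1*, *Cdh2* and *Dnase2b* fall outside the rule for named genes and were chosen after their values were seen. *Vim*, the intermediate filament vimentin, read 12.85, 12.87 and 12.93.

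The connexin genes *Gja3* and *Gje1*, which build the gap junctions of fibers, read 12.04, 11.91 and 11.91 for *Gja3* and 11.45, 11.37 and 11.43 for *Gje1*. *Cdh2*, N-cadherin, read 10.61, 10.26 and 10.39. The dimmest members were the water channel gene *Aqp5* at 6.90, 7.14 and 6.81 and *Clic5* at 6.84, 6.73 and 6.85, both still above background. Of the 22 members 13 were highest in W3, against 30.1% of all genes above background, while 11 were lowest in W1 and 10 in W2. Of all 11756 genes above background, 3784 were lowest in W1 and 4322 in W2.

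**Figure D2:**
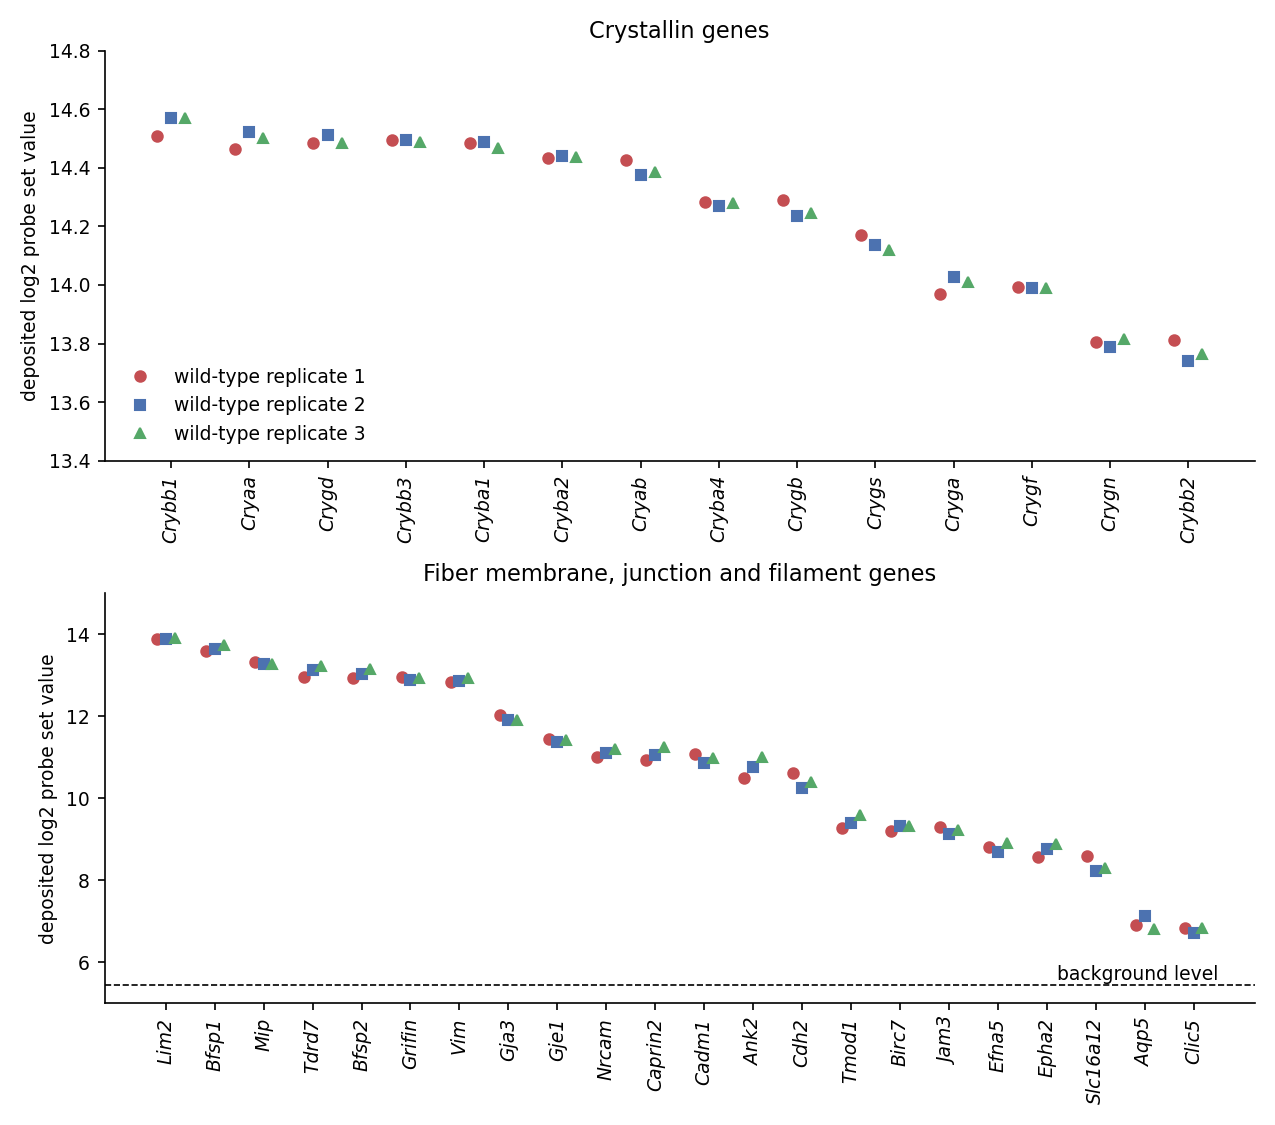
Deposited log2 value of each crystallin gene (upper panel) and each fiber membrane, junction and filament gene (lower panel) in the 3 wild-type arrays, 1 point per array, genes ordered by their mean. The vertical axes do not start at 0; the crystallins span 13.77 to 14.55 and the fiber genes reach down towards the background level (dashed line).

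Loss of organelles is the last step of fiber maturation, and the genes listed for it mix nucleases, lysosomal enzymes, cell cycle inhibitors and a phospholipase. Of 24 listed genes 18 were measured, all above background, and 12 lay in the top 10%. *Plaat3*, a phospholipase needed for organelle breakdown in the lens, led them at 12.65, 12.68 and 12.77. *Cdkn1c*, the p57 inhibitor of the cell cycle, read 11.92, 11.81 and 11.89, and *Hmox1*, heme oxygenase, read 11.62, 11.78 and 11.89.

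The lysosomal genes *Ctsl*, *Lamp1* and *Ctsd* had means of 11.38 ± 0.19, 11.26 ± 0.084 and 10.78 ± 0.056 (SD, n = 3). *Dnase2b*, the nuclease that degrades fiber DNA, read 9.75, 10.30 and 10.33, with W1 the lowest. The dimmest members were the autophagy gene *Epg5* at 5.78, 5.98 and 6.03 and the lipoxygenase gene *Alox15* at 5.16, 5.60 and 5.60, the latter at the background level.

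Epithelial genes were bright too, though less uniformly than fiber genes. Of 27 listed genes all were measured, 26 were above background and 12 lay in the top 10%, with a median percentile of 86.8. The secreted chaperone gene *Clu* read 12.76, 12.82 and 12.82 and the matrix protein gene *Sparc* read 12.39, 12.42 and 12.48. The secreted Wnt modulators *Dkk3* and *Sfrp1* read 12.24, 12.19 and 12.30 for *Dkk3* and 11.53, 11.89 and 11.89 for *Sfrp1*.

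*Ccnd1*, cyclin D1 of the dividing epithelium, read 11.56, 11.18 and 10.98. *Gja1*, the connexin of epithelial gap junctions, read 11.75, 10.81 and 11.03, and its W1 value stood well above the other two. The dimmest were the transporter gene *Abcb4* at 5.71, 5.74 and 5.76 and the growth factor receptor gene *Met* at 5.64, 5.01 and 4.71, which was the only member whose mean fell below background.

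Transcription factors that build the lens were mostly brighter than the median gene, with a median percentile of 81.1. Of 39 listed genes 34 were measured, 33 were above background, and 8 lay in the top 10%. The brightest member of the list was *Hmgn3*, which encodes a nucleosome-binding protein, at 12.18, 12.09 and 12.14. *Maf*, the factor that switches on crystallin genes in fibers, followed at 11.55, 11.73 and 11.87. The other 5 probe sets of *Maf* had means from 6.62 to 11.68, all above background.

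*Pax6*, the regulator of eye development, read 11.26, 10.85 and 10.92, and *Mab21l2* and *Mab21l1* read 10.57, 9.89 and 10.22 for *Mab21l2* and 9.91, 9.63 and 9.71 for *Mab21l1*. *Hsf4*, the heat shock factor of the lens, read 9.50, 9.99 and 9.96. *Sox1*, a factor of fiber cells, read 9.49, 9.45 and 9.58. W1 was the highest array for *Pax6* and both *Mab21* genes and the lowest for *Hsf4*.

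*Prox1*, which drives fiber elongation, read 9.21, 9.42 and 9.58, and *Pitx3*, a homeobox factor, read 9.02, 9.47 and 9.38. Below them, with *Foxe3*, came *Mafg* at 8.75, *Six3* at 8.72, *Etv5* at 8.64, *Meis2* at 8.62, *Sall1* at 8.59 and *Tcf4* at 8.58 as means. A block of genes between 8.45 and 7.96 held *Tfap2a*, *Zeb2*, *Foxp1*, *Sox2*, *Sox11*, *Nfib* and *Meis1*. In this block *Sox11*, a factor of neural progenitors as well, varied most, with 8.64, 7.92 and 7.71.

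The dimmer factors were *Mafk* at 7.62, *Eya1* at 7.62, *Rarb* at 7.53, *Nfia* at 7.43, *Pknox1* at 7.24 and *Rxra* at 7.23 as means. *Six5*, *Msx2* and *Gata3* had means of 7.05, 7.03 and 6.70. *Etv4*, a target of FGF signals, had a mean of 5.76, just above background. *Eya2*, at 5.24, 5.09 and 5.31, was the 1 factor below it.

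**Figure D3:**
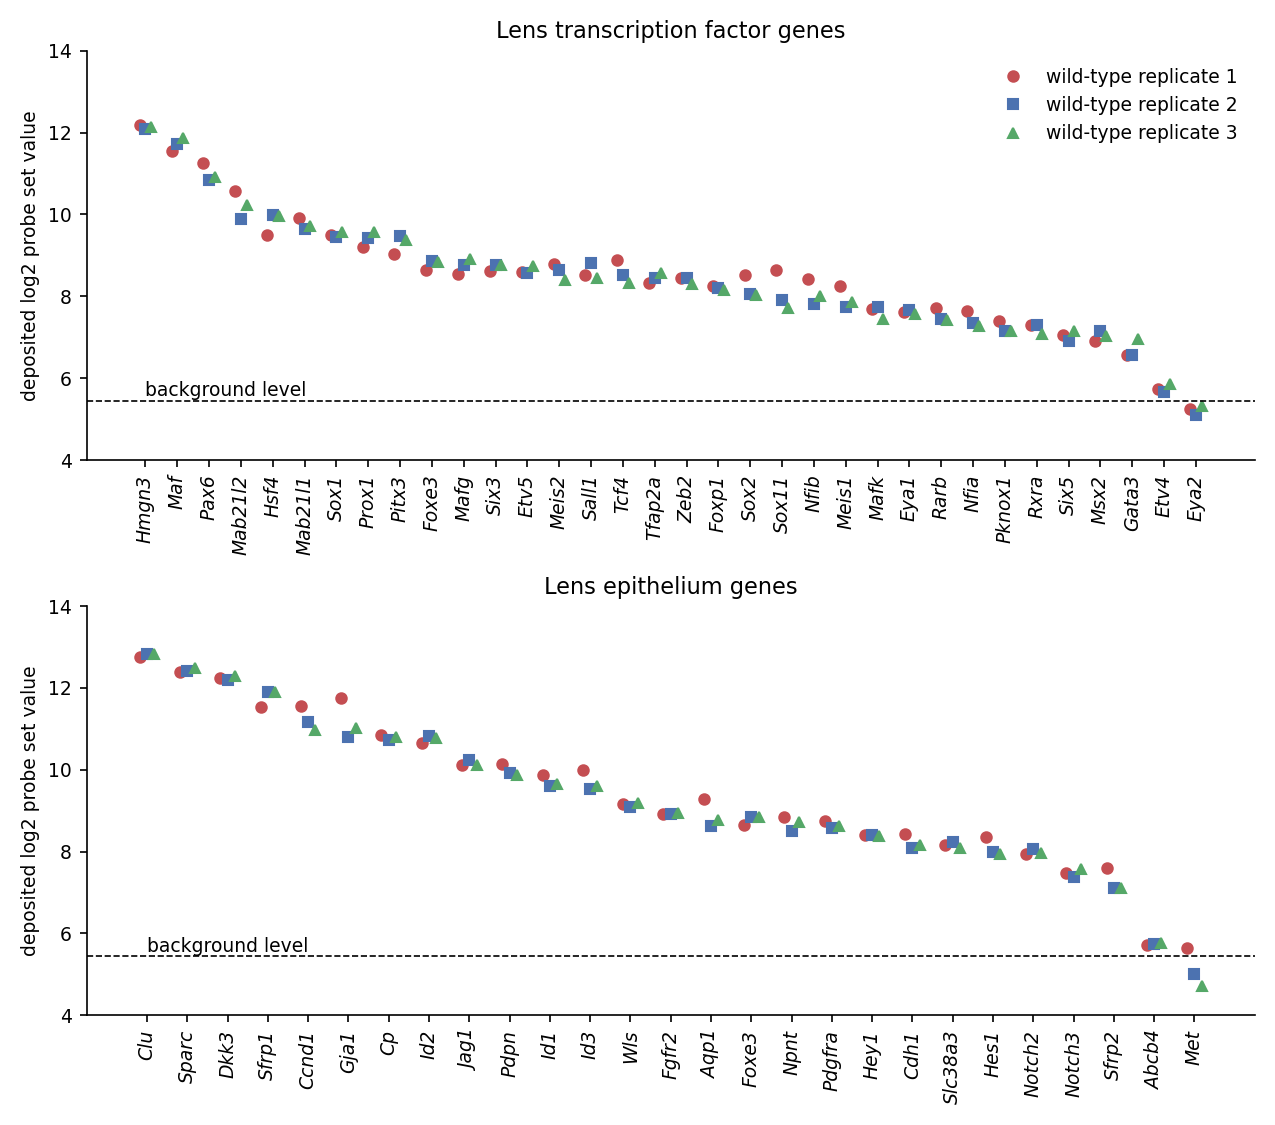
Deposited log2 value of each lens transcription factor gene (upper panel) and each lens epithelium gene (lower panel) in the 3 wild-type arrays, 1 point per array, genes ordered by their mean. The vertical axes do not start at 0; of the factors only *Eya2* and of the epithelium genes only *Met* have a mean below the background level (dashed line).

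The capsule is a basement membrane secreted mainly by the epithelium. Of 27 listed genes of the capsule and its receptors 26 were above background and 11 in the top 10%. *Sparc* was followed by the chains of collagen IV, *Col4a1* at 12.10, 12.21 and 12.35 and *Col4a2* at 11.20, 11.36 and 11.39. *Nid1*, the linker protein nidogen, read 11.99, 12.02 and 11.99, and *Itgb5* and *Col4a5* had means of 10.66 ± 0.11 and 10.66 ± 0.19. The dimmest were the integrin genes *Itgb4* and *Itga5* at means of 5.44 and 5.40, both near the background level.

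The cytoskeleton was among the brightest classes outside the crystallins. Of 36 listed actin, tubulin and spectrin genes 32 were measured, all above background, and 24 lay in the top 10%. *Tmsb10*, which binds actin monomers, read 13.68, 13.61 and 13.53, *Actb* read 13.58, 13.49 and 13.44 and *Tuba1a* read 13.39, 13.27 and 13.26. *Actg1*, *Tmsb4x* and *Stmn1*, the last a protein that takes microtubules apart, had means of 12.91 ± 0.016, 12.77 ± 0.095 and 12.43 ± 0.20. The tropomodulin genes *Tmod3* and *Tmod2* were dimmest at means of 6.33 and 5.99.

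Water and ion transport genes were dimmer than those of the cytoskeleton as a class, with a median percentile of 70.1 against 95.7. All 19 measured, of 24 listed, were above background, and 4 lay in the top 10% (21.1%, against 10.0% of all genes). After *Mip* came *Atp1b3*, a subunit of the sodium pump, at 11.64, 11.41 and 11.48 and *Atp2a2*, a calcium pump, at 11.14, 11.11 and 11.18. The channel gene *Trpm3* read 10.22, 10.07 and 10.05, and the water channel gene *Aqp1*, known from the epithelium, read 9.29, 8.62 and 8.78. *Aqp4*, a water channel of glia, was the dimmest at a mean of 5.53.

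Among metabolic classes, oxidative phosphorylation was the brightest. Of 50 measured genes, from 52 listed, 49 were above background and 47 in the top 10%, with a median percentile of 98.4. *Ndufa1*, of respiratory complex I, read 13.22, 13.21 and 13.28 and *Uqcrb*, of complex III, read 13.00, 12.98 and 12.95. The cytochrome oxidase subunits *Cox6a1*, *Cox5b*, *Cox7a2* and *Cox6b1* had means from 12.53 to 12.90. The 1 member below background was *Cox7c* at 4.73, 4.82 and 4.66, on the brighter of its 2 single-symbol probe sets.

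The tricarboxylic acid cycle, which feeds electrons to those complexes, had 23 of 24 genes measured, all above background, and 15 in the top 10%. *Sdhb* read 11.74, 11.83 and 11.82, and the malate dehydrogenases *Mdh2* and *Mdh1* read 11.80, 11.63 and 11.54 for *Mdh2* and 11.41, 11.31 and 11.31 for *Mdh1*. The pyruvate carboxylase gene *Pcx*, at a mean of 6.64, was the dimmest.

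Glycolysis is the main energy source of mature fibers, which have no mitochondria. Of 21 measured genes, from 24 listed, 20 were above background and 12 in the top 10%, and none was among the 100 brightest. *Pgk1* read 11.95, 11.95 and 11.91, the glucose carrier gene *Slc2a1* read 11.99, 11.69 and 11.69 and *Aldoc* read 11.66, 11.70 and 11.81. *Pkm*, *Ldha* and *Tpi1* had means of 11.53 ± 0.08, 11.40 ± 0.14 and 11.13 ± 0.13. *Slc2a3*, the neuronal glucose carrier, lay below background at a mean of 5.15. *Gapdh*, *Gpi1* and *Eno1* were not read as single genes; a probe set that carries *Gapdh* together with other symbols read 13.71, 13.81 and 13.81.

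In the pentose phosphate route, which supplies NADPH, *Tkt* stood out at 12.79, 12.48 and 12.52, against means from 9.92 to 10.21 for *Pgls*, *Taldo1* and *Pgd*. Protection against oxidation was uneven. Of 37 measured redox genes, from 40 listed, 33 were above background and 12 in the top 10%. *Aldh1a1*, an aldehyde dehydrogenase, read 13.20, 13.01 and 13.06 and *Gstp1*, a glutathione transferase, read 12.72, 12.86 and 12.89. *Gpx1* and *Prdx2*, which remove peroxides, read 12.27, 12.27 and 12.21 for *Gpx1* and 12.21, 12.10 and 12.04 for *Prdx2*, whereas *Sod3* and *Glrx3* lay below background at means of 4.82 and 3.96.

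Cholesterol, of which fiber membranes hold very much, is made by enzymes whose genes were moderately bright. All 19 measured, of 23 listed, were above background and 4 lay in the top 10%. *Hmgcs1*, at an early step of the pathway, read 10.70, 10.69 and 10.63, and *Fdps* and *Fdft1* had means of 9.94 ± 0.13 and 9.78 ± 0.035. *Mvd* was the dimmest at a mean of 7.28. In iron and amino acid handling, *Fth1*, the ferritin heavy chain, held rank 31 at 13.21, 13.30 and 13.28, and *Slc3a2* and *Slc7a5*, which together form an amino acid carrier, read 11.69, 11.73 and 11.79 for *Slc3a2* and 10.68, 10.88 and 10.92 for *Slc7a5*.

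The machinery of protein synthesis made up much of the bright end. By name, 33 of the 100 brightest genes were ribosomal protein genes, and of 43 measured members of that list 34 lay in the top 10%. *Rpl41*, at 13.97, 14.03 and 14.04, was the single gene to break the run of crystallins within the first 13 places. *Rpl37a*, *Rpl4* and *Rps29* had means of 13.56 ± 0.028, 13.45 ± 0.017 and 13.37 ± 0.027. *Rpl12* at 5.38 and *Rps16* at 3.71 were listed below background, but ribosomal genes have many processed copies and their best probe sets often carry several symbols. A probe set shared by *Rps16* and its copies read 13.79, 13.73 and 13.69, and with shared probe sets kept, 70 genes of the list lay in the top 10%.

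All 29 measured translation factors lay in the top 10%. *Tpt1* and *Eef1a1*, the latter the factor that carries tRNA to the ribosome, read 13.84, 13.77 and 13.77 for *Tpt1* and 13.81, 13.73 and 13.71 for *Eef1a1*. *Eif3b* was the dimmest at a mean of 9.72. Of 31 proteasome genes 30 lay in the top 10%, led by *Psmb4* at 12.06, 11.97 and 12.05, with *Psmd7* the dimmest at a mean of 9.13.

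Of 35 measured chaperone genes 32 were above background and 26 in the top 10%. *Hspa8*, the constitutive heat shock protein, read 12.91, 12.74 and 12.83, *Tcp1*, of the chaperonin that folds actin and tubulin, read 12.32, 12.44 and 12.46, and *Hsp90aa1* read 12.38, 12.23 and 12.26. *Hspb1*, a small heat shock protein, read 11.82, 11.96 and 12.32. In contrast, the stress-inducible *Hspa1a* read 4.92, 4.51 and 4.42, below background in every array. Of 13 measured reference genes used to scale RNA assays, *B2m* spanned the widest range, from 8.22 to 9.27, and *Pgk1* was steady at 11.94 ± 0.024.

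**Figure D4:**
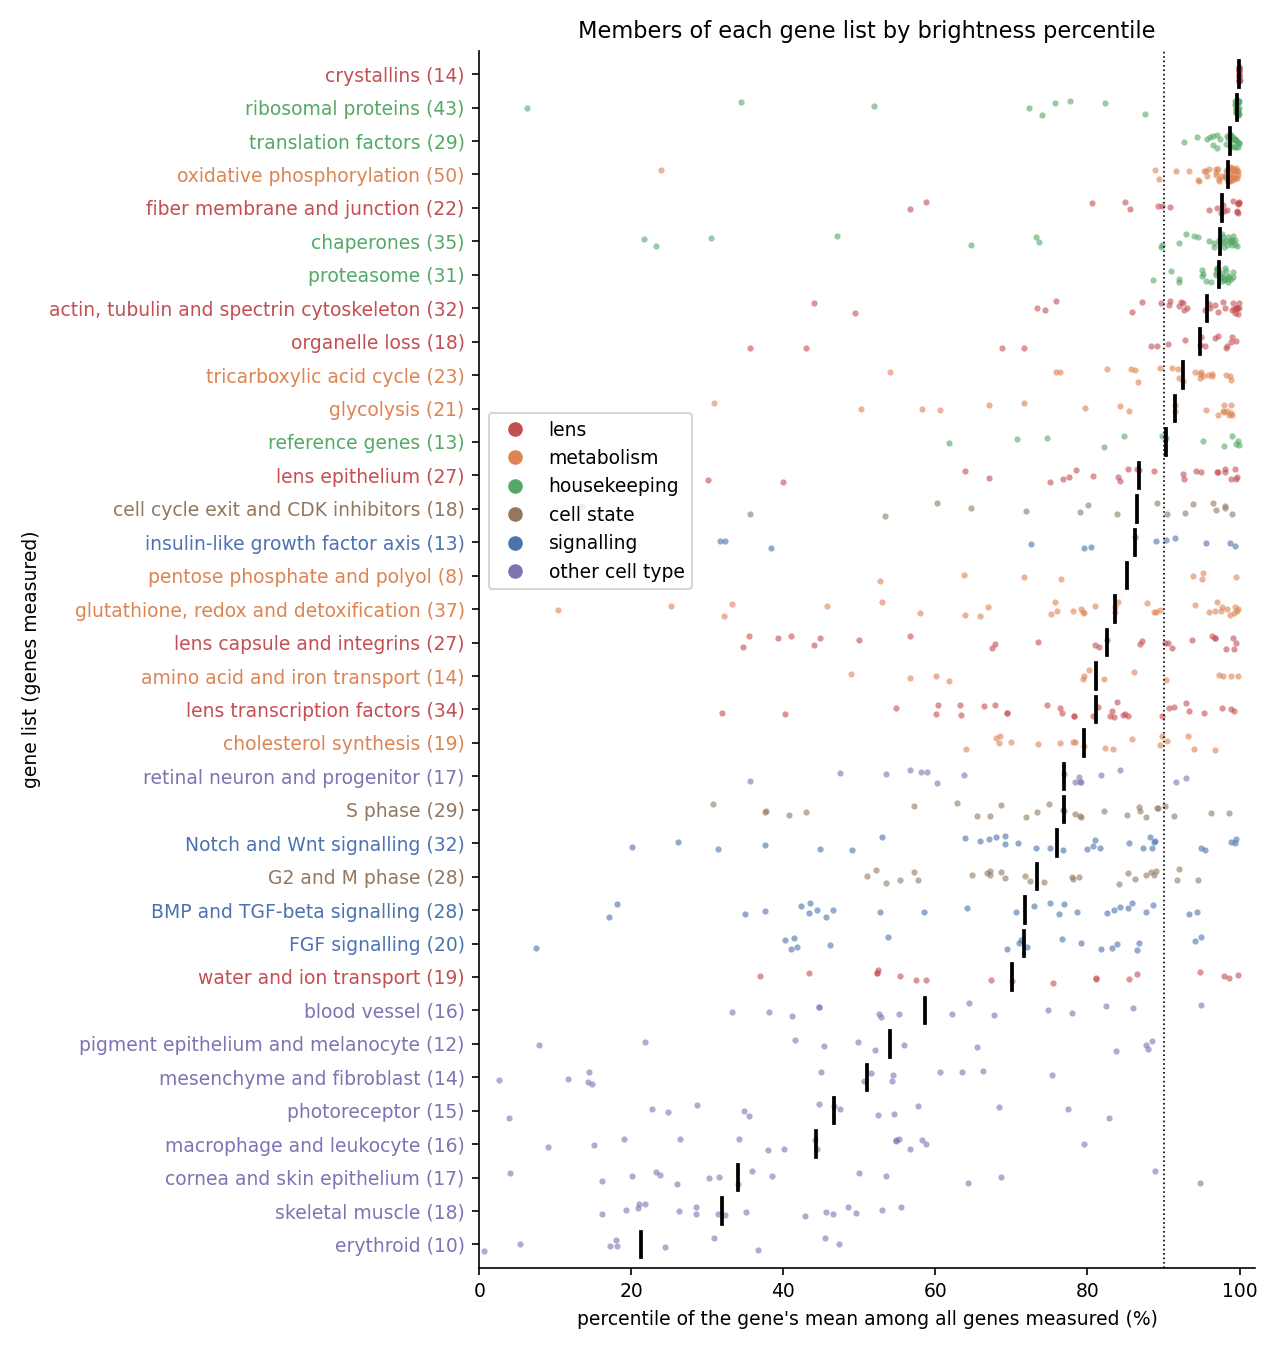
Percentile of each gene's mean among all 18193 genes (horizontal axis) for the members of 36 gene lists (rows, with the number of genes measured), 1 point per gene, median as a black bar, start of the top 10% as a dotted line. Points are shifted at random within a row for legibility; crystallins, ribosomal proteins, translation factors and oxidative phosphorylation stand at the top, and all lists of other cell types but that of retinal neurons at the bottom.

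Of the 100 brightest genes, 83 belonged to at least 1 of the 38 lists. The brightest of the rest were *Cd24a*, a surface glycoprotein, at 13.65, 13.60 and 13.59 and *Fabp5*, a fatty acid carrier, at 13.69, 13.52 and 13.52. *Akr1a1*, an aldehyde reductase, read 13.03, 12.98 and 12.96. *Capn3*, a calpain protease with lens splice forms, read 12.44, 12.78 and 12.97, lowest in W1. *Mgarp*, *Gnas*, *Hnrnpab*, *Dynll1* and *Mif* had means of 12.86 ± 0.024, 12.80 ± 0.057, 12.77 ± 0.088, 12.74 ± 0.028 and 12.68 ± 0.012.

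The others of the 20 brightest genes outside all lists were *Rps3a1*, *Nap1l4*, *ND5*, *Mocs2*, *Selenow*, *Paics*, *Tsc22d1*, *Nap1l1*, *Fbxw22*, *Ywhae* and *Scd2*, with means from 12.38 to 13.16. *ND5*, a subunit of complex I encoded by the mitochondrial genome, was among them. *Scd2*, a fatty acid desaturase, was the dimmest of these, and it lay with *Fbxw22* and *Ywhae* just past the 100 brightest genes.

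Genes of dividing cells were mostly brighter than the median gene, while their share in the top 10% was near that of all genes. Of 29 S phase genes 28 were above background and 4 in the top 10% (13.8%, against 10.0% of all genes). Of 28 G2 and M phase genes all were above background, against 64.6% of all genes, and 3 in the top 10% (10.7%). *Pcna*, the sliding clamp of DNA replication, read 11.77, 11.50 and 11.29 and *Mcm7*, of the replicative helicase, read 10.67, 10.51 and 10.33. *Cks2*, *Top2a* and *Ccna2* read 10.21, 10.16 and 9.76 for *Cks2*, 9.82, 9.62 and 9.40 for *Top2a* and 9.67, 9.68 and 9.32 for *Ccna2*. W1 was the highest array for 24 of the 28 S phase and 25 of the 28 G2 and M phase genes above background, against 48.1% of all genes above background.

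A further list of 18 genes joins inhibitors of the cell cycle with the D cyclins, which act the other way and drive cells into it. Of these, 17 were above background and 8 in the top 10%, and the inhibitor *Cdkn1c*, given above, was the brightest. *Btg1*, which restrains division, read 11.40, 11.13 and 11.03. The D cyclin genes *Ccnd1*, given above, and *Ccnd2*, at 10.69, 10.73 and 10.78, were among the 8. *Cdkn2a*, the senescence-linked inhibitor, was below background at 3.98, 4.22 and 4.23.

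Growth factor pathways control when an epithelial cell becomes a fiber. FGF drives fiber differentiation, and 19 of 20 measured genes of its pathway were above background. The receptors *Fgfr3* and *Fgfr2* read 10.09, 10.13 and 10.19 for *Fgfr3* and 8.91, 8.93 and 8.94 for *Fgfr2*, while the ligand gene *Fgf2* was below background at 3.85, 3.92 and 3.60. The phosphatase gene *Ptpn11*, which relays receptor signals, read 9.97, 9.89 and 10.01. Of the 20 genes 2 lay in the top 10%, the same share as over all genes.

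In the BMP and TGF-beta pathway 25 of 28 genes were above background and 2 in the top 10%. Its shared mediator *Smad4* read 9.99, 10.11 and 10.02 and the receptor gene *Bmpr2* read 9.83, 9.84 and 9.80. The ligands *Tgfb2* and *Bmp4* read 9.25, 9.14 and 9.04 for *Tgfb2* and 9.39, 8.56 and 9.13 for *Bmp4*. The antagonist gene *Nog* and the ligand gene *Bmp2* were below background at means of 4.34 and 4.41.

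In the Notch and Wnt list 29 of 32 genes were above background and 5 in the top 10%. *Ctnnb1*, beta-catenin, which also serves cell junctions, read 12.66, 12.66 and 12.63. The ligand genes *Wnt7b* and *Jag1* read 9.96, 10.38 and 10.47 for *Wnt7b* and 10.10, 10.23 and 10.12 for *Jag1*. In the insulin-like growth factor axis the binding protein gene *Igfbp7* and the adaptor gene *Irs1* were bright at 12.36, 12.31 and 12.42 for *Igfbp7* and 11.46, 11.70 and 11.62 for *Irs1*, and *Igf2* read 10.18, 10.31 and 10.38. The other probe set of *Igf2* had a mean of 4.30, below background.

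Markers of other eye tissues were read in the same arrays. For the photoreceptor list 10 of 15 genes were above background (66.7%, against 64.6% of all genes) and none was in the top 10%, with list medians of 6.33, 6.31 and 5.91. *Rbp3* and *Nrl*, both of photoreceptors, read 8.68, 8.73 and 8.30 for *Rbp3* and 8.49, 8.38 and 7.59 for *Nrl*, whereas *Gnat1*, the transducin subunit of rods, was below background at 4.67, 4.53 and 4.83. The other probe set of *Rbp3* had a mean of 4.13, below background. Of retinal neuron and progenitor genes all 17 measured were above background, against 64.6% of all genes. In the top 10% lay 2 of them (11.8%, near the 10.0% of all genes), and the list medians were 8.41, 8.07 and 7.74. *Neurod1*, a factor of retinal and other neurons, read 10.28, 9.89 and 9.07 on 1 probe set and 9.82, 9.53 and 8.64 on its other.

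*Lhx2* and *Six6*, factors of the retina, read 9.91, 9.38 and 9.34 for *Lhx2* and 8.92, 8.36 and 8.14 for *Six6*, and the neuronal microtubule regulator gene *Stmn2* read 9.01, 8.72 and 8.34. The retinal lists thus were lowest in W3, for 10 of 10 photoreceptor and 16 of 17 retinal neuron genes above background. Of all 11756 genes above background, 3650 were lowest in W3. The part of retinal tissue in these values was not tested.

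Pigment cell genes gave 10 of 12 above background (83.3%, against 64.6% of all genes) and none in the top 10%, with list medians of 6.91, 6.64 and 6.65. *Pmel*, *Mitf* and *Dct* read 9.31, 9.06 and 9.02 for *Pmel*, 9.08, 9.04 and 9.08 for *Mitf* and 9.29, 8.94 and 8.86 for *Dct*, and *Tyrp1* read 9.11, 8.32 and 8.47. The other probe set of *Mitf* had a mean of 5.12, below background. The retinoid enzyme genes of pigment epithelium, *Rpe65* and *Lrat*, were below background in every array at means of 4.62 and 3.81.

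Vessel genes gave 15 of 16 above background (93.8%, against 64.6% of all genes) and 1 in the top 10%, with list medians of 7.37, 6.65 and 6.88. *Rgs5*, of pericytes, read 10.71, 9.73 and 10.00, *Cldn5*, of endothelial junctions, read 9.16, 8.51 and 8.85 and *Kdr*, the main VEGF receptor gene, read 8.75, 8.54 and 8.31. *Vwf* was below background at 5.35, 5.21 and 5.35. W1 was highest for 13 of the 15, against 48.1% of all genes above background. W2 was lowest for 13 of the 15, against 4322 of all 11756 genes above background.

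Macrophage genes gave 11 of 16 above background (68.8%, near the 64.6% of all genes) and none in the top 10%, with list medians of 6.27, 5.70 and 6.04. *Csf1r*, the receptor that keeps macrophages alive, read 8.88, 7.81 and 8.22 and *Mrc1* read 7.39, 6.32 and 7.01. The general leukocyte gene *Ptprc* was below background at 3.93, 3.88 and 3.81. The order of the arrays was that of the vessel list, with W2 the lowest for 10 of the 11, against 4322 of all 11756 genes above background.

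Of 17 measured cornea and skin genes 8 were above background (47.1%, fewer than the 64.6% of all genes). The brightest, *Lor*, encodes a protein of the skin's outer layer and read 9.93, 10.11 and 10.30, but its 2 other probe sets had means of 4.99 and 4.44, below background, so its level is uncertain. *Krt10* and *Krt1*, keratins of upper skin layers, read 8.96, 8.83 and 9.69 for *Krt10* and 7.11, 6.63 and 8.97 for *Krt1*, highest in W3. *Krt12*, the keratin of corneal epithelium, was below background at 4.13, 4.25 and 4.50.

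Mesenchyme genes gave 9 of 14 above background (64.3%, near the 64.6% of all genes), led by *Col5a1* at 8.23, 7.84 and 7.95, with *Col3a1* at 7.79, 7.81 and 6.68, while the corneal stroma gene *Kera* read 3.52, 3.28 and 3.48, below background. The other probe set of *Col3a1* had a mean of 3.95, also below background. Muscle genes gave 7 of 18 above background (38.9%, fewer than the 64.6% of all genes). Of these *Mylpf* at 6.66, 7.03 and 6.51 was brightest, and *Myod1* had a mean of 4.58, below background. Of 10 measured red cell genes 3 were above background, a smaller share than the 64.6% of all genes. The globin gene *Hba-a1* read 4.49, 4.29 and 4.43. The adult beta-globin gene *Hbb-b2* had a mean of 6.09, above background, but its other probe set had a mean of 3.99, below background. With probe sets of several symbols kept, 8 red cell genes were above background and 6 of them in the top 10%.

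*Xist*, the RNA of the inactive X chromosome of females, read 9.96, 9.68 and 10.14, and the Y-linked gene *Eif2s3y* read 6.98, 7.17 and 7.27. On these probe sets both genes lay above background in every array, but the other probe set of *Eif2s3y* had a mean of 3.26, below background. The other Y-linked genes measured, *Kdm5d* and *Uty*, read 5.84, 5.59 and 5.50 for *Kdm5d* and 5.39, 5.60 and 5.05 for *Uty*, near background.

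The 3 arrays were close to each other over the whole transcriptome. The correlation over all genes, which are not independent replicates, was 0.992 between W1 and W2, 0.992 between W1 and W3 and 0.996 between W2 and W3. For 10398 of the 11756 genes above background (88.4%) the highest and lowest array differed by less than 0.5. The SD fell with brightness, from a median of 0.154 in the dimmest 10% of genes above background to 0.0839 in the brightest 10%.

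A range of 1 or more between the highest and lowest array was seen for 107 genes, or 0.910% of those above background. W1 lay apart from the other arrays for 69 of them, higher in 68, and it held the highest value in 101 of the 107. Counted over 2 arrays at a time, 7 genes had such a range without W1, 49 without W2 and 65 without W3. None of the 107 was a crystallin, a fiber gene, an epithelium gene or a lens transcription factor of the lists. These lists hold 14, 22, 26 and 33 genes above background, so hardly any would be expected at a share of 0.910%. The water and ion transport list had 1, *Kcnj13*. The lists with the most were macrophage genes with 4 and retinal neuron genes with 3.

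The largest SD belonged to *Krt1*, at 1.24, whose W3 value stood above the others. Next came *Aplnr*, an endothelial receptor gene, at 7.51, 5.65 and 6.68, and *Tbx20* at 6.53, 4.75 and 5.50. *Fabp7*, a fatty acid carrier of neural progenitors, read 10.48, 9.66 and 9.02, and *Cd34*, of vessels and blood progenitors, read 8.22, 6.78 and 7.23. *Acta1*, skeletal muscle actin, read 6.66, 7.02 and 5.37, and *Crym* read 7.31, 6.66 and 5.62.

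The others of the 15 largest were *Lrrtm1*, *AI467606*, *Epha3*, *Ets1*, *Cyp1b1*, *Vcan*, *Col11a1* and *Il33*, with SDs from 0.73 to 0.87. W1 was the highest array for each of these 8, as it was for 101 of the 107 genes with a range of at least 1. Over all genes above background its share was 48.1%. All of the 8 but *Vcan* read below the background level of 5.44 in W2 or W3, such as *AI467606* at 4.52 in W2 and *Epha3* at 4.60 in W3. *Tbx20* did so too, at 4.75 in W2. Genes were kept by their mean, so a high W1 value helps such dim genes into this set. No lens gene of the lists was among the 15, a set too small for that absence to be read as a result.

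W1 differed in class as well as in single genes. The median deviation of a list's members from their own means was 0.34 in W1 for retinal neuron genes, 0.28 for vessel genes, 0.23 for S phase and 0.23 for G2 and M phase genes, against 0.031 for all genes above background. The same quantity in W1 was 0.0022 for crystallins and -0.027 for fiber genes. In W3 it was -0.32 for retinal neuron genes and -0.30 for photoreceptor genes, and in W2 it was -0.32 for vessel genes.

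W1 also differed in technical readings. The control probe sets for the start, middle and end of 18S ribosomal RNA were all highest in W1, and that for the start read 12.37, 11.05 and 10.60. The upper quartile of all probe sets was 7.21, 7.11 and 7.11, and the lower quartile 4.11, 4.19 and 4.19. The controls at the 2 ends of *Gapdh* and *Actb* messages, which can part when RNA is broken, differed by at most 0.33 in any array. These controls read from 13.18 to 13.54, in the bright part of the scale, and whether the RNA was intact was not tested. The part of these readings, or of tissue beside the lens, in the deviations of W1 was not tested.

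**Figure D5:**
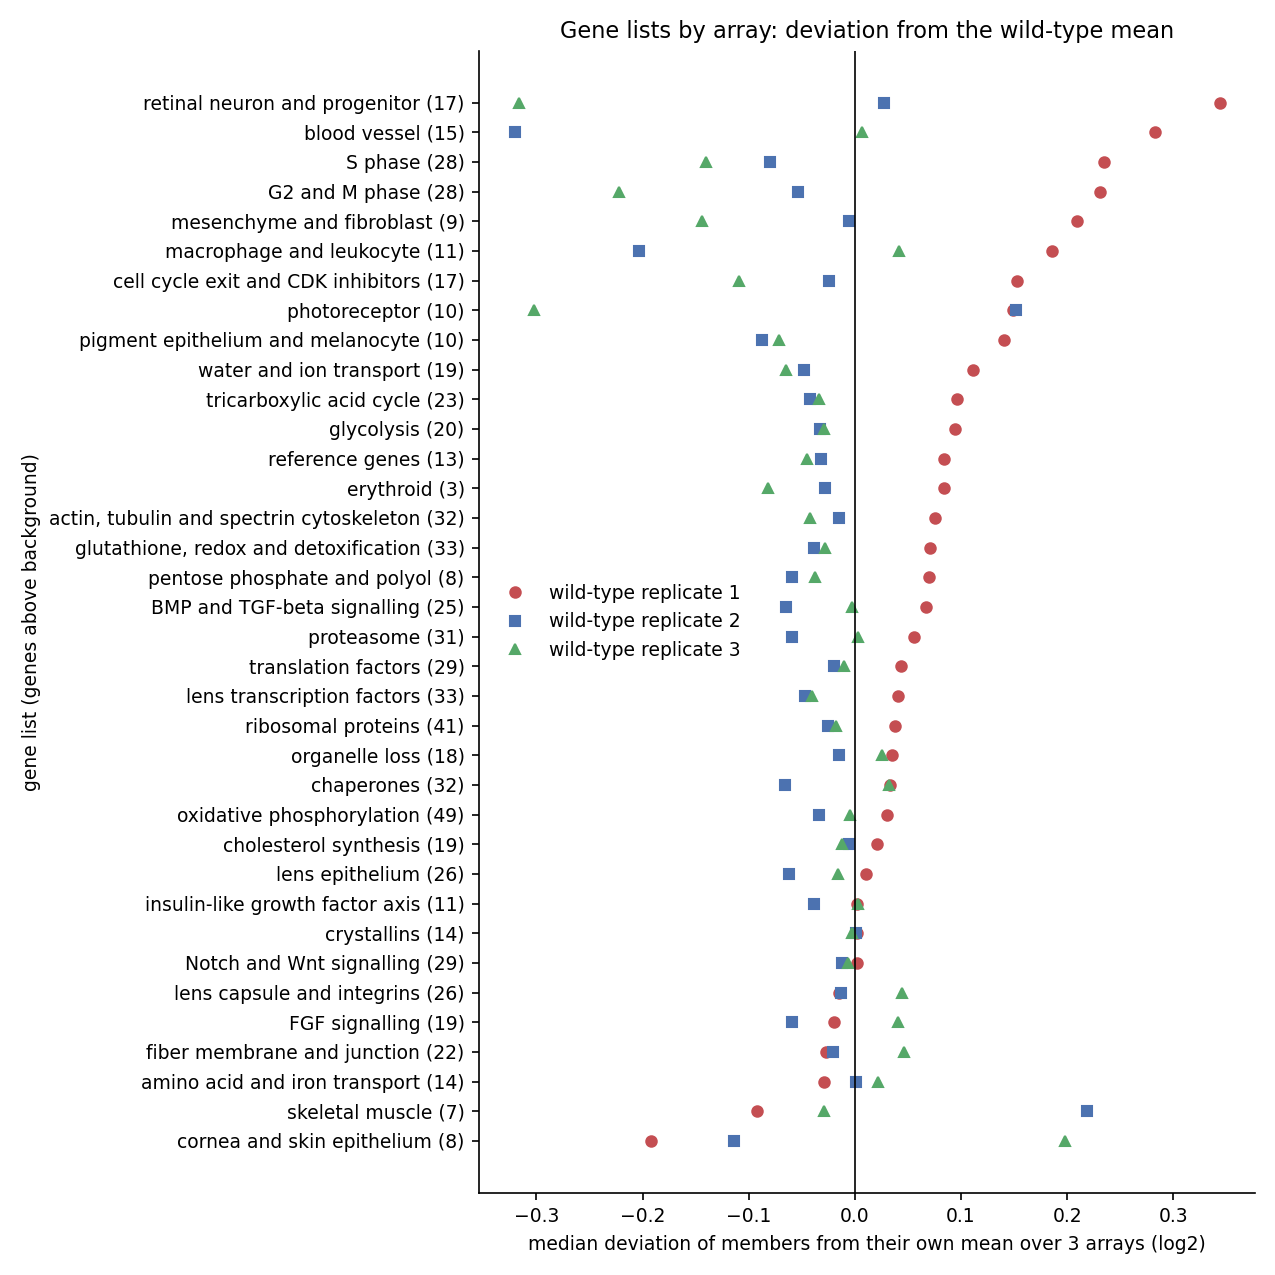
Median deviation of the members of each gene list from their own mean over the 3 wild-type arrays (horizontal axis, log2), 1 point per array, lists in rows with the number of genes above background and ordered by the value of replicate 1. Replicate 1 lies to the right for retinal neuron, vessel and cell cycle lists, while the crystallin points of all 3 arrays lie between -0.0030 and 0.0022.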

How the data were processed

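Per the labels' protocols, total RNA of whole lenses was purified on a GenElute kit and carried biotin from in vitro transcription. The authors deposited 1 log2 value per probe set and array; that the scale is log2 was read from the values, and how probes were summarised and arrays normalised is not given in the sources used. The 64 control probe sets were set aside, which left 45037. Names came from the platform annotation in GEO, brought up to date with RefSeq (GRCm38.p6), by which 34945 had 1 symbol, 932 several and 9160 none here.

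Deposited values were used as they are, since quantile normalization forces the arrays onto 1 distribution and changes the spread to be described. Means, SDs and ranks over the 3 wild-type arrays were computed with pandas 2.3.3 in Python 3.11.15, and the script was tested on simulated data. There is no test between groups. Arrays give no read depth, and their number limits the precision. The text names the 30 brightest genes, the 4 markers, the 6 brightest and 2 dimmest members of each list (printed in part), all measured crystallins and lens transcription factors, the 15 largest SDs and the 20 brightest genes in no list. The 38 lists hold 902 genes, of which 796 were measured. Members and lists were chosen with earlier results of these data known. Motifs were searched on both strands of RefSeq promoters. Alternatives covered the scale between arrays, the choice of probe set, shared probe sets, the background level, the size of the range, the strand searched and each array left out.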

Additional observations from a re-analysis of the deposited data

How the results depend on the processing

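The number of genes with a range of at least 1 depended most on the processing. It was 107 as reported, 70 after quantile normalization over all 6 arrays, 53 when the probe sets of a gene were averaged, 69 with the background at the median of all genes and 1358 for a range of at least 0.5. With 1 array left out it ran from 7 (without W1) to 65 (without W3). The median SD of genes above background was 0.124, and 0.0716 to 0.119 with 1 array left out, lowest without W1. TGCTGA stood in 6 crystallin promoters on the given strand alone. Genes above background numbered from 9096 to 12597 over the alternatives, and 13 to 15 crystallins stayed among the 30 brightest. Of the 30 brightest genes, 18 were shared with the ranking that kept probe sets of several symbols, 23 with the mean of probe sets, 24 without probe sets whose names mark cross-binding, and 29 or 30 under the other alternatives. Of 760 recomputed list counts 17 moved by more than 1.5 times. Of 275 recomputed levels of the brightest and marker genes 29 moved by more than the SD of the gene, 12 of them under quantile normalization over all 6 arrays and 11 when probe sets were averaged. With the background at the median of all genes, 6 photoreceptor, 7 macrophage, 5 cornea and skin, 2 muscle and 0 red cell genes lay above it. No paired analysis was possible because the arrays described form 1 group.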

Other observations

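The ranking by single genes leaves out much of the bright end of the array. Of the 100 brightest probe sets, 57 carried 1 symbol, 31 several and 12 none here. Among the brightest shared ones, a probe set for *Rps6* and a copy of it read 13.82, 13.85 and 13.86, and 1 for *Ppia*, cyclophilin A, and a copy read 13.61, 13.53 and 13.50. Of 7238 genes above background with more than 1 probe set, 4880 had a second probe set above background too, and the median gap to it was 1.10.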
